A study of Mus musculus with 12 samples.

Results

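RNA-seq libraries from the prostates of TRAMP mice fed phenethyl isothiocyanate (PEITC) were compared between 24 and 16 weeks of age, with 2 libraries (replicates 0 and 1) at each age. These 4 of the 12 libraries of the series were chosen by their labels for genotype, diet and age, and all 24421 genes of the files were considered. TRAMP mice of the strain C57BL/6-Tg(TRAMP)8247Ng/J carry the SV40 T antigens under the probasin promoter, which is active in prostate epithelium. Tissue came from the ventral and dorsolateral lobes, and the diet was AIN93M with 0.05% (w/w) PEITC. Neither the age at which the diet began nor the number of animals behind a library is given in the sources used here. TRAMP mice on AIN93M without PEITC (the control diet) are represented by 2 libraries of 24 weeks (replicates 0 and 2) and 2 of 16 weeks, and are set beside them as the like comparison, with no library in common. The remaining 4 libraries, from wild type C57BL/6 prostate without PEITC (2 of 24 weeks, 1 of 16 weeks) and from a TRAMP tumor at 24 weeks, entered the estimate of the spread and give reference levels.

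In TRAMP epithelium the T antigens inactivate the p53 and RB proteins, so that cells enter the cycle and the gland passes from intraepithelial neoplasia to carcinoma as the animal ages. Normal luminal cells make secretory proteins under androgens, basal cells lie beneath them, and a sheath of smooth muscle surrounds each duct. PEITC is an isothiocyanate released from watercress and other cruciferous vegetables. Isothiocyanates react with cysteines of proteins such as KEAP1, which frees NRF2 to switch on genes of detoxification.

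The measure was FPKM, fragments scaled by gene length and library total, so levels can be compared between genes. The FPKM of the 4 PEITC libraries summed to 395678 to 408734, and between 17113 and 18219 of 24421 genes were above 0. Depth in reads is unknown, since FPKM is not a count. The smallest steps between values gave a depth of 0.941 and 0.925 of the deepest library at 24 weeks, and of 0.667 and 0.854 at 16 weeks, so the younger pair was the shallower. The genes that mark prostate were abundant in all 4. Sbp, the spermine-binding protein of prostatic fluid, stood at 2194 FPKM or more, and the luminal keratin Krt8 at 347 or more. Summed seminal vesicle and coagulating gland markers were at 3.98 and 6.11 FPKM at 24 weeks and 2.93 and 17.1 at 16 weeks. Of these 12 markers, 7 and 2 were listed at 0 at 24 weeks. In each 16-week library 11 were, so each sum there is the value of a single gene. One library stood apart. Replicate 1 at 24 weeks correlated with replicate 0 of its own group at 0.9905 (Pearson, log2(FPKM + 1), 13375 genes) and with the 16-week libraries at 0.9854 and 0.9882, whereas replicate 0 at 24 weeks correlated with the 16-week libraries at 0.9927 and 0.9914. Beside results that rest on that library, values without it are given.

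No gene was called in this comparison. Of 13375 genes tested with limma, 0 (0.00%) had an adjusted p under 0.05, and the smallest adjusted p was 0.212. At an unadjusted p under 0.05 there were 1075 genes (8.04%), of which 502 were higher at 24 weeks (3.75% of those tested) and 573 were lower (4.28%). The median size of the log2 difference was 0.092 and its median 95% interval reached 0.25 to either side, so most single genes could not be told from no difference. The 2 libraries of 24 weeks lay above both of 16 weeks in 2936 genes (22.0%) and below both in 3486 (26.1%), and these shares are the background for every count of such genes below. A log2 difference of at least 1 was reached by 54 genes higher at 24 weeks and by 13 lower. The ages did not overlap in 30 of the 54 and in 11 of the 13. Without replicate 0 of 24 weeks 24 genes were called, all higher in the remaining library (replicate 1), and without any other PEITC library 0 were called. The directions given below are therefore values of these libraries, and none passed the test.

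Genes of cholesterol synthesis were lower at 24 weeks. The pathway turns acetyl units into mevalonate, squalene and then sterols, and is driven by SREBP2 (the product of Srebf2), which INSIG proteins hold back when sterols are plentiful. Of the 19 tested members of 20, 19 lay lower in both 24-week libraries than in both 16-week ones, against 26.1% of all genes, and 0 lay higher. Their median log2 difference was -0.30, against -0.0038 over all genes tested, and 13 had an unadjusted p under 0.05. Since the ages did not overlap in any of the 19, leaving out 1 library could not turn a sign. The medians then ran from -0.33 to -0.30. In bulk tissue, fewer cells of a type and less RNA per cell cannot be told apart.

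Sqle, squalene epoxidase (chr15:59315077-59331192, plus strand, protein-coding), stood at 14.1 and 14.3 FPKM at 24 weeks and 21.6 and 21.9 at 16 weeks. The 2 libraries of an age nearly coincided, and the log2 difference was -0.58 (SE 0.065, adjusted p = 0.212). Cyp51, which encodes the demethylase of lanosterol (chr5:4081145-4104746, minus strand), stood at 13.8 and 13.8 FPKM at 24 weeks and 19.9 and 20.1 at 16 weeks, a difference of -0.50 (SE 0.067, adjusted p = 0.212). The oxidase that follows it in the pathway, Msmo1, was at 18.1 and 17.1 FPKM at 24 weeks and 23.1 and 24.2 at 16 weeks. Each of these 3 enzymes was among the 5 smallest p-values on the lower side. Sqle was called with limma's library weights, which came out equal for both libraries of a group and so weighed the groups, and Sqle and Msmo1 were called when genes of low level were kept. Idi1, the isomerase of isoprenoid units, was at 6.93 and 7.21 FPKM at 24 weeks and 9.38 and 9.63 at 16 weeks. The ages stayed apart in each of these 4. Hmgcs1, the synthase that precedes mevalonate, was at 9.01 and 10.1 FPKM at 24 weeks and 11.1 and 11.1 at 16 weeks, a narrower gap. Fdps, which makes farnesyl diphosphate, was at 26.0 and 25.9 FPKM at 24 weeks and 29.8 and 33.4 at 16 weeks. Regulators of the pathway had the same sign. Srebf2 was at 34.5 and 33.4 FPKM at 24 weeks and 43.8 and 44.4 at 16 weeks. Insig1 was at 26.5 and 25.7 FPKM at 24 weeks and 33.0 and 36.3 at 16 weeks.

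On control diet the same list had a median of -0.16, with 12 of 19 members lower in both 24-week libraries, against 24.8% of all genes there, and 0 higher, against 21.5%. Sqle was at 15.6 and 14.6 FPKM at 24 weeks and 17.1 and 18.3 at 16 weeks, so that the widest gap between the diets was at 16 weeks. Among the 8 TRAMP prostate libraries, both of PEITC at 16 weeks were the highest for 7 of 19 members, and both of PEITC at 24 weeks the lowest for 9. Msmo1 was at 19.8 and 19.7 FPKM at 24 weeks and 26.0 and 25.7 at 16 weeks, and the log2 difference was -0.37 there and -0.40 on PEITC. The test of the difference between diets called 0 members. Its unadjusted p was under 0.05 for 6 members with a more negative difference on PEITC, against 6.02% of all genes in that direction, and for 0 in the other, against 6.84%. Mvk, mevalonate kinase, was at 9.79 and 9.23 FPKM at 24 weeks and 11.9 and 12 at 16 weeks on PEITC. Its control-diet values were 11.6 and 10.6 FPKM at 24 weeks and 11.1 and 10.2 at 16 weeks, where the ages overlap, and the difference between diets was -0.35 (SE 0.12, adjusted p = 0.32).

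**Figure D1:**
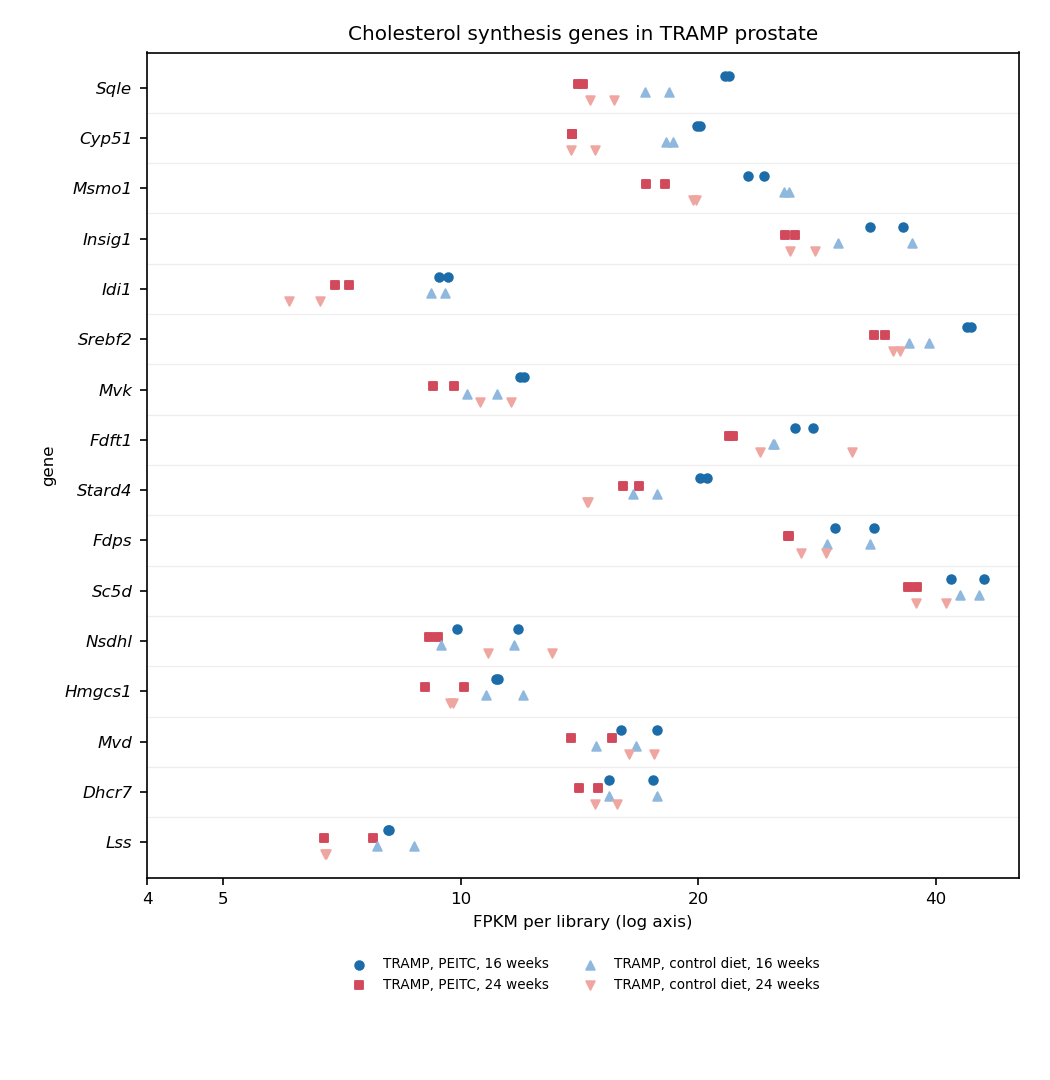
FPKM of 16 of the 19 tested cholesterol synthesis genes (log axis) in the 8 TRAMP prostate libraries, 1 point per library, ordered by the log2 difference on PEITC. In every row both squares (PEITC, 24 weeks) lie to the left of both circles (PEITC, 16 weeks), while the triangles of the control diet overlap in some rows such as Mvk and Fdft1.

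Because these genes lay lower together, their promoters were read. RefSeq windows (GRCm38.p6) from 250 bases before to 50 after the start were found for 12 of the 20 members, in 14 windows. The sterol element was searched as TCACNCCAC and the site of the factor NF-Y as CCAAT, each on both strands; in the windows printed no match of one overlaps a match of the other. CCAAT was found for 12 of 12 genes, against 41.1% of all 27025 gene symbols. It was found in 12 of 14 windows, against 37.4% of all 32851 windows. TCACNCCAC was found in 1 window, that of Hmgcs1, against 1.24% of all windows. These matches describe the letters only. The search was chosen after the values were seen, and CCAAT had been set down for another list. The windows of 3 members that differ in their matches are shown 5′ to 3′ on the gene's strand, with both kinds of match in capitals: Cyp51 (chr5:4104648-4104947, minus strand), Idi1 (chr13:8885356-8885655, plus strand) and Hmgcs1 (chr13:119690101-119690400, plus strand).
Cyp51: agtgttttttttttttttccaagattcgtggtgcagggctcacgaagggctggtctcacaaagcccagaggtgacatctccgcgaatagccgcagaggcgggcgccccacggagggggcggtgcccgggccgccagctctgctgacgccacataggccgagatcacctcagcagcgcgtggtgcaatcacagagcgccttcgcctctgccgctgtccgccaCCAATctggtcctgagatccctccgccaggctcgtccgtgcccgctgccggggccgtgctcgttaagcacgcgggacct
Idi1: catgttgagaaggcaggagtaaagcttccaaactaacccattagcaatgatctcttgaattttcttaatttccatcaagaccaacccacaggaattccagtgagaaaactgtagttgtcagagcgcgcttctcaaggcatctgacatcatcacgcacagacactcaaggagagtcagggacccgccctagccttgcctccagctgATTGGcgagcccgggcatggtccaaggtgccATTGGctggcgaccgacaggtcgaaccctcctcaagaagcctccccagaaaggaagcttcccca
Hmgcs1: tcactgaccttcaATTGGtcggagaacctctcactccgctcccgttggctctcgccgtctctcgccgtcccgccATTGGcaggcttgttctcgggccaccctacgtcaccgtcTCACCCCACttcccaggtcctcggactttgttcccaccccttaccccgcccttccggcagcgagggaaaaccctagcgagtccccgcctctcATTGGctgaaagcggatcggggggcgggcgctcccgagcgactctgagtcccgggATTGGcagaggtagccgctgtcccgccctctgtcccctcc

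Genes of prostatic secretion divided into those that were lower at 24 weeks and those that were not. Sbp (chr17:23941672-23945607, plus strand) stood at 2230.2 and 2194 FPKM at 24 weeks and 3815 and 4166 at 16 weeks, with a log2 difference of -0.85 (SE 0.11, adjusted p = 0.212). Its neighbour in name and sequence Sbpl was at 176 and 166 FPKM at 24 weeks and 408 and 327 at 16 weeks, and fragments shared by such near copies may be split between them. Spink1, a trypsin inhibitor of the secretion, was at 607 and 610.2 FPKM at 24 weeks and 1552 and 1293 at 16 weeks. In each of these the 24-week libraries lay close together and below both 16-week ones. The calcium channel Trpv6 was at 7.48 and 9.14 FPKM at 24 weeks and 18.0 and 22.5 at 16 weeks (0.41 of the 16-week mean, adjusted p = 0.219). Wfdc3, of a family of small protease inhibitors, is not on the list of secretory genes and was chosen after its values were seen. It was at 3.20 and 2.88 FPKM at 24 weeks and 13.7 and 12 at 16 weeks, a log2 difference of -1.77 (SE 0.46, adjusted p = 0.555). Every one of these 5 was higher in each wild type library than in any TRAMP prostate. Sbp stood at 14577 and 14196 FPKM in wild type prostate at 24 weeks. Trpv6 stood at 167 and 144 there.

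Other secretory genes overlapped between the ages or lay the other way. Pbsn, probasin, whose promoter drives the transgene, was at 68.1 and 46.9 FPKM at 24 weeks and 46.6 and 105 at 16 weeks, with full overlap. Its expression depends on androgens. Msmb, a major secreted protein, was higher in both 24-week libraries, at 1199 and 1069.8 FPKM at 24 weeks and 877 and 668 at 16 weeks. Defb50, a defensin, was at 826 and 854 FPKM at 24 weeks and 853 and 677 at 16 weeks. Over the 15 tested members, 7 were lower and 2 higher without overlap, the median was -0.14, and it was -0.090 without replicate 1 of 16 weeks. On control diet the median was -0.70. There Sbp was at 2042 and 2324 FPKM at 24 weeks and 3599 and 3931 at 16 weeks, close to the values on PEITC. Msmb was at 329 and 978 FPKM at 24 weeks and 1231 and 1053 at 16 weeks. Defb50 was at 244 and 763 FPKM at 24 weeks and 822 and 975 at 16 weeks, and for both genes replicate 0 of 24 weeks was the low one. The difference between diets for Msmb was 1.57 (SE 0.59, adjusted p = 0.342). The androgen-responsive list had a median of -0.080 over 15 genes.

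**Figure D2:**
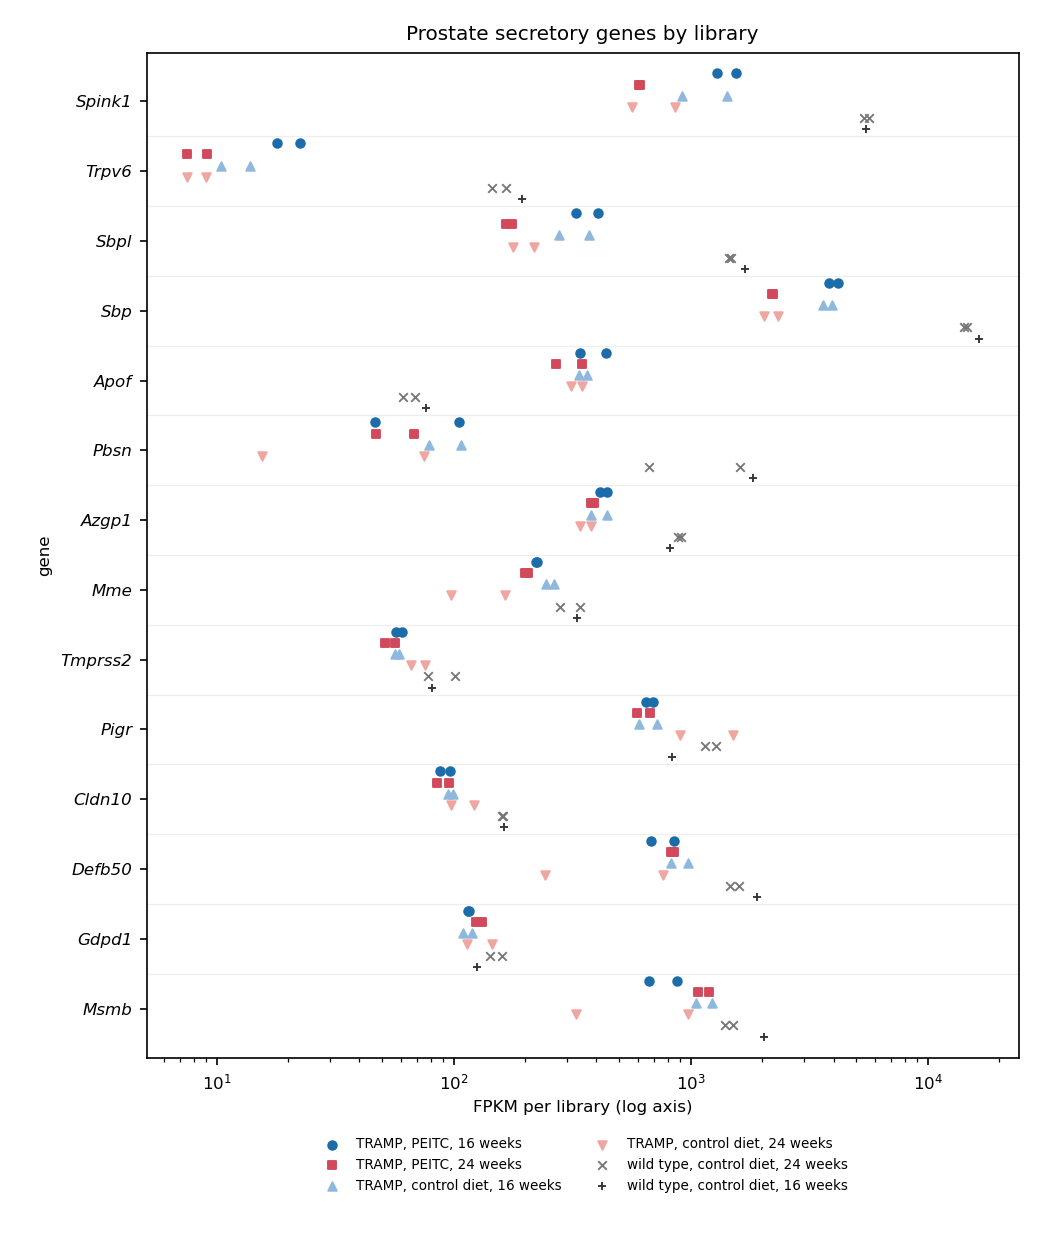
FPKM of 14 of the 15 tested prostate secretory genes (log axis) in the TRAMP prostate and wild type libraries, 1 point per library, ordered by the log2 difference on PEITC. At the top, squares (PEITC, 24 weeks) lie left of circles (PEITC, 16 weeks) for Spink1, Trpv6, Sbpl and Sbp, all below the wild type crosses; at the bottom, 1 control-diet library of 24 weeks lies far left for Defb50 and Msmb.

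Basal cell genes were lower at 24 weeks. These cells anchor the epithelium through hemidesmosomes and are lost as prostate carcinoma develops. Of 12 tested markers, 10 lay lower without overlap and 0 higher, with a median of -0.25. All 12 were lower by sign with every library, and 11 or 12 without 1 of them. For the 10 without overlap, leaving out 1 library could not turn the sign. Among the 8 TRAMP prostate libraries, both of PEITC at 16 weeks were the highest for 5 of 12 markers. Both of PEITC at 24 weeks were the lowest for 0. The median was -0.41 with 0.1 and -0.13 with 5 added to FPKM in place of 1, since several markers are low. Krt15, a basal keratin (chr11:100131758-100135928, minus strand), was at 21.4 and 20.8 FPKM at 24 weeks and 33.9 and 31.6 at 16 weeks, a difference of -0.61 (SE 0.16, adjusted p = 0.555). Krt5 was at 7.47 and 6.25 FPKM at 24 weeks and 10.8 and 10.1 at 16 weeks. Dst, which ties keratin to the hemidesmosome, was at 5.24 and 4.88 FPKM at 24 weeks and 8.09 and 6.77 at 16 weeks. Among the PEITC libraries each of these had its 2 lowest values at 24 weeks. Trp63, the transcription factor that defines basal cells, was at 0.774 and 0.764 FPKM at 24 weeks and 1.08 and 1.04 at 16 weeks. These levels are low, and wild type prostate had 5.01 and 4.74 FPKM at 24 weeks. On control diet the median was 0.14. Krt15 was at 27.2 and 22.6 FPKM at 24 weeks and 17.9 and 22.1 at 16 weeks there, with the 24-week libraries above. The difference between diets for Krt15 was -0.92 (SE 0.23, adjusted p = 0.306), and 4 of 12 markers had an unadjusted p under 0.05 in this direction, against 6.02% of all genes. Among these was Krt17, a keratin of basal cells under stress, at 2.09 and 2.97 FPKM at 24 weeks and 3.91 and 3.66 at 16 weeks on PEITC. On control diet it was at 6.48 and 5.35 FPKM at 24 weeks and 3.02 and 1.46 at 16 weeks. Luminal markers had a median of -0.080 over 16 genes. Krt8 was at 359 and 347 FPKM at 24 weeks and 408 and 402 at 16 weeks.

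Genes of DNA replication were slightly lower at 24 weeks. Their products unwind, prime and copy the genome. Of 25 tested, 15 lay lower without overlap and 0 higher, with a median of -0.15, and it was -0.11 without replicate 0 of 24 weeks, when 17 were lower by sign, and -0.079 after quantile normalization. Mcm5, a subunit of the replicative helicase, was at 49.4 and 49.4 FPKM at 24 weeks and 61.9 and 61.4 at 16 weeks (adjusted p = 0.606); wild type prostate had 2.59 and 1.91 FPKM at 24 weeks. Mcm3, of the same ring, was at 54.1 and 53.4 FPKM at 24 weeks and 64.6 and 61.5 at 16 weeks. Rrm1, which makes deoxyribonucleotides, was at 36.0 and 39.3 FPKM at 24 weeks and 44.0 and 42.8 at 16 weeks. The ages did not overlap in any of these 3. Ccne1, cyclin E1, was at 8.62 and 10.5 FPKM at 24 weeks and 12.1 and 12 at 16 weeks. The control diet had nearly the same median, -0.16, but fewer members lower without overlap, 9 of 25, against 24.8% of all genes there.

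For mitotic genes the sign depended on 1 library. The list had a median of -0.089, with 2 of 25 members lower without overlap. Without replicate 1 of 24 weeks it was -0.33, and without replicate 0 it was 0.14, the other direction. Mki67, which coats mitotic chromosomes, was at 15.9 and 20.6 FPKM at 24 weeks and 26.7 and 24.8 at 16 weeks. Top2a, the topoisomerase of mitosis, was at 29.5 and 42.0 FPKM at 24 weeks and 39.9 and 44.1 at 16 weeks. In both, replicate 1 was the higher library of 24 weeks. Cdkn2a, which encodes the inhibitors p16 and ARF, was at 99.0 and 104 FPKM at 24 weeks and 109 and 71.3 at 16 weeks. Cdkn1a, the p21 gene, was at 3.66 and 5.84 FPKM at 24 weeks and 4.49 and 4.25 at 16 weeks. The ages overlapped in both. On control diet Cdkn2a was at 136 and 119.7 FPKM at 24 weeks and 82.2 and 44.4 at 16 weeks, and the difference between diets was -0.86 (adjusted p = 0.4).

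Histone genes lay lower on PEITC. Of 16 tested, 9 lay lower without overlap and 0 higher, with a median of -0.24, which was -0.15 without replicate 0 of 24 weeks and -0.15 without replicate 0 of 16 weeks. The control diet had a histone median of 0.018. Without overlap 2 members were higher there, against 21.5% of all genes, and 3 lower, against 24.8%. On PEITC Hist1h1c, a linker histone, was at 108 and 129 FPKM at 24 weeks and 199.8 and 170.4 at 16 weeks. Hist1h2bc, a core histone, was at 45.3 and 56.5 FPKM at 24 weeks and 69.9 and 63.4 at 16 weeks. Copies of histone genes can share fragments, so single values are uncertain. Dnmt1, the maintenance DNA methyltransferase gene, was at 30.9 and 29.8 FPKM at 24 weeks and 36.0 and 35.5 at 16 weeks. Ezh2, of the polycomb complex, was at 30.0 and 35.4 FPKM at 24 weeks and 35.5 and 32.4 at 16 weeks, with overlap. Trp53, a tumor suppressor gene, and Myc, an oncogene, were nearly level, with log2 differences of 0.062 and 0.0048; the interval for Myc was -0.20 to 0.21.

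On the higher side at 24 weeks stood genes of splicing. SR proteins and TRA2 factors bind exons and recruit the spliceosome, and the CLK kinases phosphorylate them. Of 20 tested, 17 lay higher without overlap, against 22.0% of all genes, and 1 lower, with a median of 0.19. The median stayed between 0.16 and 0.20 without any 1 library. Srsf10 (chr4:135855747-135869908, plus strand) was at 32.2 and 34.3 FPKM at 24 weeks and 26.1 and 25.1 at 16 weeks, a difference of 0.37 (SE 0.081, adjusted p = 0.467). Tra2b was at 54.7 and 56.7 FPKM at 24 weeks and 46.5 and 48.3 at 16 weeks. Srsf7 was at 55.2 and 61.2 FPKM at 24 weeks and 46.9 and 46.2 at 16 weeks. The ages stayed apart in all 3, by gaps that are narrow beside the level. Clk1, the kinase, was at 36.3 and 37.7 FPKM at 24 weeks and 29.3 and 29.6 at 16 weeks. On control diet the list had a median of -0.068. Without overlap 4 members were higher, against 21.5% of all genes there, and 9 lower, against 24.8%. Srsf10 was at 24.8 and 28.7 FPKM at 24 weeks and 33.4 and 35.6 at 16 weeks there, the opposite order. Tra2b was at 45.8 and 51.6 FPKM at 24 weeks and 59.4 and 60.6 at 16 weeks, likewise reversed. The difference between diets was 0.72 for Srsf10 (SE 0.11, adjusted p = 0.305) and 0.53 for Tra2b (adjusted p = 0.305), neither called.

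Genes of the circadian clock lay higher as well. The clock is a daily loop in which CLOCK and BMAL1 switch on the Per, Cry and Nr1d genes, whose products switch them off. Per3 (chr4:151003652-151044665, minus strand) was at 13.5 and 13.8 FPKM at 24 weeks and 9.56 and 9.49 at 16 weeks, a difference of 0.48 (SE 0.077, adjusted p = 0.26), and is among the 5 smallest p-values on the higher side. Nr1d1 and Nr1d2 encode nuclear receptors that repress BMAL1. Nr1d1 was at 16.4 and 15.8 FPKM at 24 weeks and 10.0 and 13.3 at 16 weeks. Nr1d2 was at 33.7 and 35.8 FPKM at 24 weeks and 24.5 and 26.2 at 16 weeks. Hlf, an output factor, was at 2.48 and 2.90 FPKM at 24 weeks and 1.73 and 1.89 at 16 weeks. All 4 were higher in both 24-week libraries. Arntl, which encodes BMAL1, was at 2.63 and 3.33 FPKM at 24 weeks and 3.66 and 3.07 at 16 weeks, with overlap. Npas2, whose product can pair with BMAL1 in place of CLOCK, was at 1.93 and 1.67 FPKM at 24 weeks and 2.95 and 2.20 at 16 weeks, the lower side. In all 11 of 18 members were higher without overlap and 2 lower, with a median of 0.17. On control diet the median was -0.13. Per3 was at 9.91 and 8.99 FPKM at 24 weeks and 10.4 and 10.4 at 16 weeks there. The difference between diets for Per3 was 0.60 (SE 0.11, adjusted p = 0.305). The hour of day at which animals were killed is not given in the sources used here, and its part in these values was not tested.

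Of the 5 smallest p-values on the higher side, 4 belong to genes outside these groups. Socs2, a brake on growth hormone signalling (chr10:95385362-95417180, minus strand), was at 7.88 and 9.30 FPKM at 24 weeks and 3.16 and 3.57 at 16 weeks, with no overlap. On control diet it was at 5.05 and 5.05 FPKM at 24 weeks and 5.91 and 3.73 at 16 weeks, where the ages overlap. Its log2 difference on PEITC was 1.13 (SE 0.17, adjusted p = 0.256), and it differed from control diet by 1.05 (adjusted p = 0.305). Zc3h7a, which encodes a zinc finger protein, was at 35.9 and 35.7 FPKM at 24 weeks and 28.5 and 27.9 at 16 weeks. Il18 (chr9:50554827-50581840, plus strand), a cytokine gene whose product is released through the inflammasome, was at 2.26 and 2.65 FPKM at 24 weeks and 1.25 and 1.18 at 16 weeks. Both ages were tight and apart. The next 3 were chosen after their values were seen. Wfdc15b, of the same family as Wfdc3, was at 15.1 and 16.7 FPKM at 24 weeks and 4.90 and 5.04 at 16 weeks. Echdc2, which encodes a mitochondrial enzyme, was at 111 and 97.0 FPKM at 24 weeks and 52.2 and 41.2 at 16 weeks. Car2, carbonic anhydrase 2, was at 53.5 and 48.5 FPKM at 24 weeks and 26.7 and 27.3 at 16 weeks. On control diet the ages overlapped for the 3, with Wfdc15b at 6.92 and 16.7 FPKM at 24 weeks and 11.2 and 8.71 at 16 weeks.

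The smallest p-value on the higher side belonged to Mir6362 (chr16:22605326-22605432, plus strand), a microRNA gene whose mature product, from RefSeq, is shown with its seed (bases 2 to 8) in capitals.
miR-6362: gUGGGCAUcuaggcuaguucug
It was at 1.85 and 3.13 FPKM at 24 weeks and listed at 0 in both 16-week libraries (log2(FPKM + 1) difference 1.78, adjusted p = 0.212). The other 4 TRAMP prostates had 1.22 to 1.94 FPKM, so the 16-week PEITC pair was the low one among TRAMP prostates. It was also listed at 0 in wild type at 16 weeks. A gene of this length reaches such values with few fragments, the value is of RNA over the hairpin and not of the mature product, and the 16-week pair was the shallower. It was called when 0.1 was added to FPKM in place of 1, and without replicate 0 of 24 weeks.

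**Figure D3:**
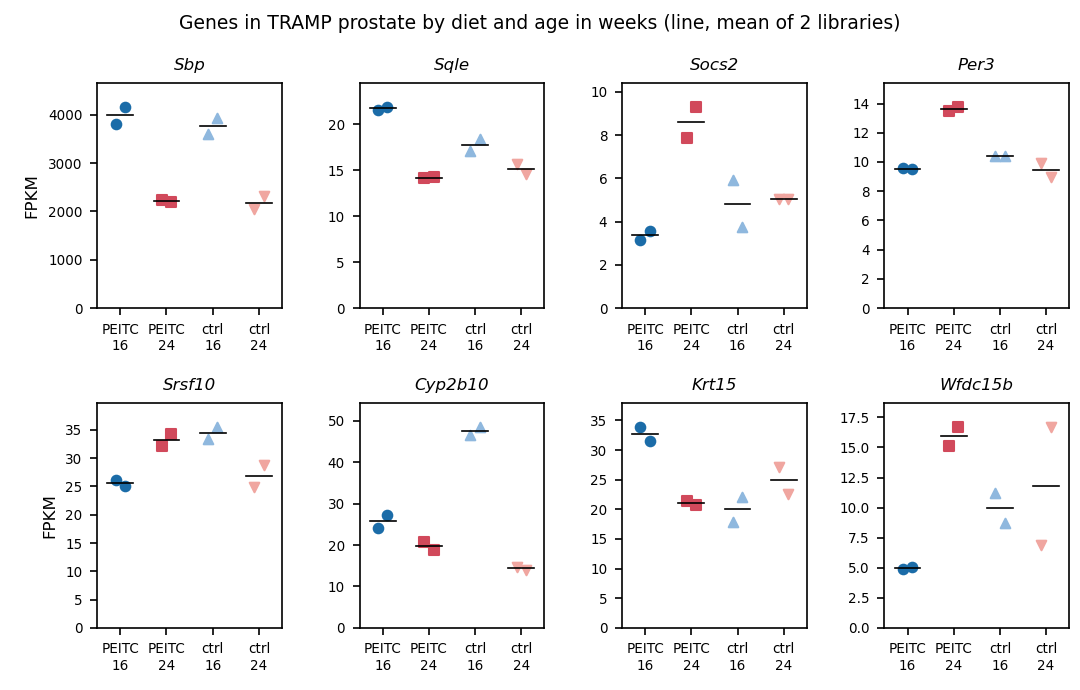
FPKM of 8 genes in the 4 groups of TRAMP prostates, with 1 point per library and a line at the mean of 2, on axes that start at 0. Sbp and Sqle are lower at 24 weeks on both diets, Socs2 and Wfdc15b have their 2 lowest libraries in the PEITC group of 16 weeks, and Cyp2b10 has its 2 highest in the control group of 16 weeks.

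Genes of drug metabolism gave the only called difference between diets. Cyp2b10 (chr7:25897620-25926624, plus strand) is a cytochrome P450 that oxidizes drugs and steroids. It was at 20.8 and 18.9 FPKM at 24 weeks and 24.1 and 27.3 at 16 weeks on PEITC, a log2 difference of -0.36 (SE 0.074, adjusted p = 0.467). On control diet it was at 14.6 and 14.1 FPKM at 24 weeks and 46.5 and 48.6 at 16 weeks, and fell by 1.66 on the log2 scale (SE 0.074, adjusted p = 0.000265), the only gene called there (1 of 13375, 0.00748%; 2261 at an unadjusted p under 0.05). The age difference was 1.30 less negative on PEITC (SE 0.10, adjusted p = 0.0245), again the 1 call of that test (0.00748%; 1720 at an unadjusted p under 0.05). The 4 PEITC values lie between the 2 ages of control diet, and wild type prostate had 109.7 and 108 FPKM at 24 weeks and 113 at 16. Over the other settings the adjusted p of this difference ran from 0.0123 to 0.246. Of the settings that leave out 1 library, it was over 0.05 without replicate 0 of the control diet at 24 weeks (0.137), without replicate 0 or 1 of the control diet at 16 weeks (0.18 and 0.246), without replicate 1 of PEITC at 24 weeks (0.0901) and without replicate 0 of PEITC at 16 weeks (0.0926).

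NRF2 targets, the detoxification genes linked to isothiocyanates, showed no common direction between the ages on PEITC. Of 23 tested, 5 lay higher without overlap and 4 lower, near the background shares, and the median was 0.017. Nqo1, a quinone reductase gene, was at 0.214 and 0.544 FPKM at 24 weeks and 0.302 and 0.378 at 16 weeks, low in all. Gclc, of glutathione synthesis, was at 22.2 and 22.9 FPKM at 24 weeks and 23.5 and 22.8 at 16 weeks, and its 95% interval was -0.27 to 0.20. Hmox1, heme oxygenase, was at 4.83 and 4.95 FPKM at 24 weeks and 3.84 and 5.74 at 16 weeks. The 11 tested genes of the AH receptor and xenobiotic list had a median of 0.078, with 1 higher and 2 lower without overlap. Cyp1a1, the main target of that receptor, was too low to be tested, at 0.0358 and 0.0364 FPKM at 24 weeks and 0 and 0 at 16 weeks. Both ages had PEITC, so the response to it is not measured by this comparison.

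Lymphocyte and plasma cell genes tended higher at 24 weeks at low levels. Jchain, which joins secreted IgA and IgM, was at 13.9 and 11.5 FPKM at 24 weeks and 2.43 and 3.94 at 16 weeks, a difference of 1.73 (SE 0.38, adjusted p = 0.467). On control diet it was at 11.7 and 11.2 FPKM at 24 weeks and 8.56 and 3.76 at 16 weeks. Of the 12 B and plasma cell markers, 9 are in the files and 5 passed the filter on low values; these 5 lay higher without overlap. Xbp1 on that list is also made by secretory epithelium, and was at 193 and 183 FPKM at 24 weeks and 152 and 168 at 16 weeks. Cd8a, of cytotoxic T cells, was at 1.58 and 3.76 FPKM at 24 weeks and 1.30 and 0.679 at 16 weeks. Cd3e, of the T cell receptor complex, was at 1.34 and 2.78 FPKM at 24 weeks and 0.947 and 1.15 at 16 weeks. In both, replicate 1 was the higher library of 24 weeks, as it was of all 4 PEITC libraries for 13 of the 16 T and NK markers. The list had 5 of 12 higher without overlap and a median of 0.25, which was 0.085 without replicate 1 of 24 weeks and 0.48 without replicate 0. With members under 5 FPKM on average left out, its median was -0.03. Macrophage markers had a median of 0.23, with 5 of 13 higher without overlap, but 0.11 without replicate 1 of 24 weeks and 0.080 without replicate 0 of 16 weeks. On control diet it was 0.52.

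Markers of 3 other cell types took their values from single libraries. Neuroendocrine genes were high in replicate 1 of 24 weeks. These mark the sparse hormone-secreting cells of the gland and the neuroendocrine carcinoma known in TRAMP mice. Chga, chromogranin A of secretory granules, was at 0.141 and 12.4 FPKM at 24 weeks and 0.324 and 0.272 at 16 weeks. Insm1, a factor of neuroendocrine cells, was at 0 and 10.8 FPKM at 24 weeks and 0.0621 and 0.0242 at 16 weeks, and at most 0.0746 in the 11 other libraries. Ddc, which makes amine transmitters, was at 0.143 and 12.1 FPKM at 24 weeks and 0.135 and 0.105 at 16 weeks. The 3 genes were alike: 1 library high and the other 3 near 0. Of the 18 markers, 13 were highest in that library among the 4 of PEITC and 10 among all 12, while 3 were listed at 0 in it, Neurod1 among them. Summed, the markers stood at 6.19 and 55.3 FPKM at 24 weeks and 6.73 and 6.02 at 16 weeks, at 4.87 and 6.64 and 6.29 and 6.01 in the control diet groups, and at 11.4 in the tumor. Wild type prostate had 10.4 and 10.3 at 24 weeks and 19.0 at 16 weeks, so the tumor was within the wild type range. Only 7 passed the filter on low values, some of them through this library, so their median of 0.72 is no measure of the list; without the library it was -0.038. Chgb, another granin that was too low to be tested, was at 0.0365 and 2.88 FPKM at 24 weeks and 0.0343 and 0.0268 at 16 weeks. Syp, synaptophysin, was at 0.576 and 3.23 FPKM at 24 weeks and 0.491 and 0.649 at 16 weeks.

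The same library was searched for genes of at least 1 FPKM and at least 4 times the level of every one of the other 11 libraries. There were 47, against 0 in replicate 0 of the same group and 3 and 1 in the 16-week libraries, all of the latter small RNA genes. The wild type library of 16 weeks had 66 and the tumor 60, each the only library of its group, and the 6 others had 0 to 2. This is a description, with genes chosen for their values. Nnat, an imprinted gene of endocrine and nerve cells, stood at 39.2 FPKM against a highest value of 7.43 elsewhere. Sox1, a neural factor, stood at 6.48 against 0.0569, and Peg10 at 5.26 against 0.324. Elavl4, an RNA-binding protein of neurons, stood at 5.01 against 0.296, and Mycn at 1.65 against 0.133. Chga, Insm1, Ddc and Chgb were among the 47 as well. In Sbp, Krt8, Sqle and Cyp51 this library lay close to replicate 0, by the values given earlier. Sbp, Sqle and Cyp51 were named for small p-values, which favour genes whose libraries of an age agree. Their closeness therefore does not show how alike these libraries are in other genes.

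Adipocyte genes were high in that library too, and in 1 of control diet. Adipoq, adiponectin, was at 0.863 and 18.9 FPKM at 24 weeks and 0.762 and 1.25 at 16 weeks. On control diet it was at 3.35 and 14.1 FPKM at 24 weeks and 3.70 and 0.255 at 16 weeks, with replicate 2 the higher at 24 weeks. Fabp4, the fatty acid carrier of fat cells, was at 15.6 and 190.1 FPKM at 24 weeks and 21.2 and 27.4 at 16 weeks. Cfd, adipsin, was at 6.60 and 135 FPKM at 24 weeks and 13.1 and 15.6 at 16 weeks. All 12 markers were highest in replicate 1 of 24 weeks among the PEITC libraries, and 9 among all 12 libraries. Summed, they stood at 38.2 and 474 FPKM at 24 weeks and 47.1 and 63.3 at 16 weeks, and on control diet at 93.5 and 308 and 85.9 and 23.1. Its median of 1.13 was -0.30 without replicate 1 of 24 weeks and 2.80 without replicate 0. Smooth muscle genes were instead high in replicate 1 of 16 weeks, for all 14 markers. Acta2, smooth muscle actin, was at 72.3 and 65.4 FPKM at 24 weeks and 75.0 and 149.6 at 16 weeks. Tagln, which binds actin in smooth muscle, was at 130.2 and 124 FPKM at 24 weeks and 148 and 248 at 16 weeks. Wild type prostate, with its muscular stroma, had 179 and 170.0 FPKM of Acta2 at 24 weeks. Summed, the markers stood at 417 and 382 FPKM at 24 weeks and 449 and 875 at 16 weeks. Its 13 tested members had a median of -0.63, with 9 lower without overlap, but -0.15 without that library and -1.11 without replicate 0 of 16 weeks. The part of these cell type levels in the other results was not tested, beyond the values without each library given above.

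**Figure D4:**
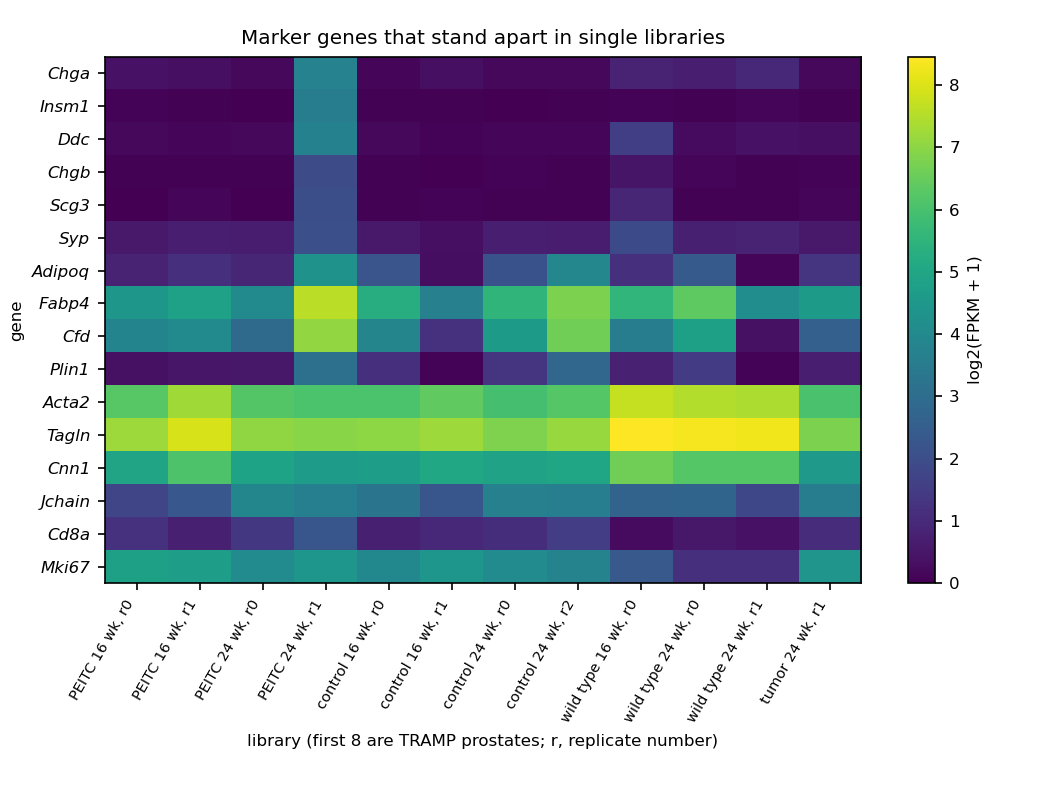
Levels of 16 marker genes, as log2(FPKM + 1), in all 12 libraries, with brighter cells for higher levels. The rows from Chga to Scg3 are bright in replicate 1 of PEITC at 24 weeks alone among TRAMP prostates. All rows share a color scale, so abundant genes such as Acta2 and Tagln are bright in every PEITC library. Within their rows, the adipocyte genes are brighter in that library and in replicate 2 of control diet at 24 weeks. Acta2, Tagln and Cnn1 are brighter in replicate 1 of PEITC at 16 weeks and in wild type prostate.

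Across the 13375 genes, the age difference on PEITC and that on control diet, which share no library, correlated weakly (Pearson 0.147, Spearman 0.069); genes are not independent and no p is given. Several lists had medians farther from 0 on control diet than on PEITC. Acute-phase and antimicrobial genes had a median of -0.026 on PEITC and 0.87 on control diet. There 12 of 14 lay higher without overlap, against 21.5% of all genes. Cytokines, chemokines and NF-kB targets had -0.028 and 0.44. Heat shock genes had -0.012 and -0.26. Genes of endoplasmic reticulum stress and secretion lay lower on both diets, with medians of -0.10 and -0.26. On PEITC 15 of 23 were lower without overlap, against 26.1% of all genes, and 5 had an unadjusted p under 0.05, against 4.28%. On control diet 17 were lower without overlap, against 24.8%. The difference between diets had an unadjusted p under 0.05 in 7 members of the last list, all less negative on PEITC, against 6.84% of all genes, and called 0. Single control libraries weighed on these counts. Without replicate 2 of 24 weeks 260 genes were called in it and 124 in the difference between diets, and without replicate 0 of 24 weeks 2 and 0. In the difference, 14 were called without replicate 0 of PEITC at 24 weeks.

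Of the 11 genes named for the control diet (the called one and the 5 smallest p-values of each direction), 7 lay apart in the same direction on PEITC and 4 did not. The 7 were Cyp2b10, Sbp, Msmo1, Idi1, Ero1l, Sox9 and Spsb2, some of them by narrow gaps, and the first 4 are given above. Ssbp4, which encodes a protein that binds single-stranded DNA, was at 22.3 and 22.1 FPKM at 24 weeks and 20.9 and 22.7 at 16 weeks on PEITC and at 36.1 and 31.3 FPKM at 24 weeks and 20.6 and 19.7 at 16 weeks on control diet. Sox9, a transcription factor of ductal and progenitor cells, was at 72.9 and 65.4 FPKM at 24 weeks and 59.1 and 63.2 at 16 weeks on PEITC and at 100.4 and 87.4 FPKM at 24 weeks and 64.1 and 60.3 at 16 weeks on control diet. Rara, the retinoic acid receptor alpha gene, was at 4.54 and 4.33 FPKM at 24 weeks and 4.24 and 4.58 at 16 weeks on PEITC and at 7.29 and 6.49 FPKM at 24 weeks and 4.15 and 4.18 at 16 weeks on control diet. In each the 2 control libraries of 24 weeks were the highest of the 8. Spsb2, an adaptor for a ubiquitin ligase, had log2 differences of 0.041 on PEITC and 0.42 on control diet. Ptx3, a pentraxin of inflammation, was at 0.0692 and 0.123 FPKM at 24 weeks and 0 and 0.343 at 16 weeks on PEITC and at 1.46 and 1.25 FPKM at 24 weeks and 0.0703 and 0 at 16 weeks on control diet. Ero1l, an oxidase of the endoplasmic reticulum, was at 19.6 and 19.7 FPKM at 24 weeks and 20.9 and 20.6 at 16 weeks on PEITC and at 15.9 and 16.8 FPKM at 24 weeks and 25.4 and 26.8 at 16 weeks on control diet. Tmed2, of transport from the endoplasmic reticulum to the Golgi, had differences of 0.058 and -0.44. Among the smallest p-values of the difference between diets, Chordc1, a partner of the chaperone HSP90, had 0.28 on PEITC and -0.57 on control diet. Zfp874a, a zinc finger gene, had 0.27 and -0.55. Cenpb, of the centromere, was at 104 and 99.1 FPKM at 24 weeks and 129 and 129.8 at 16 weeks on PEITC and at 123 and 109 FPKM at 24 weeks and 92.7 and 96.1 at 16 weeks on control diet, in opposite order. Slc25a10, a mitochondrial carrier of dicarboxylates, had -0.24 and 0.18, and Snora34, a small nucleolar RNA, -1.02 and 0.52. Each of these 12 genes had an adjusted p of at least 0.162 on control diet and of at least 0.305 between diets.

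**Figure D5:**
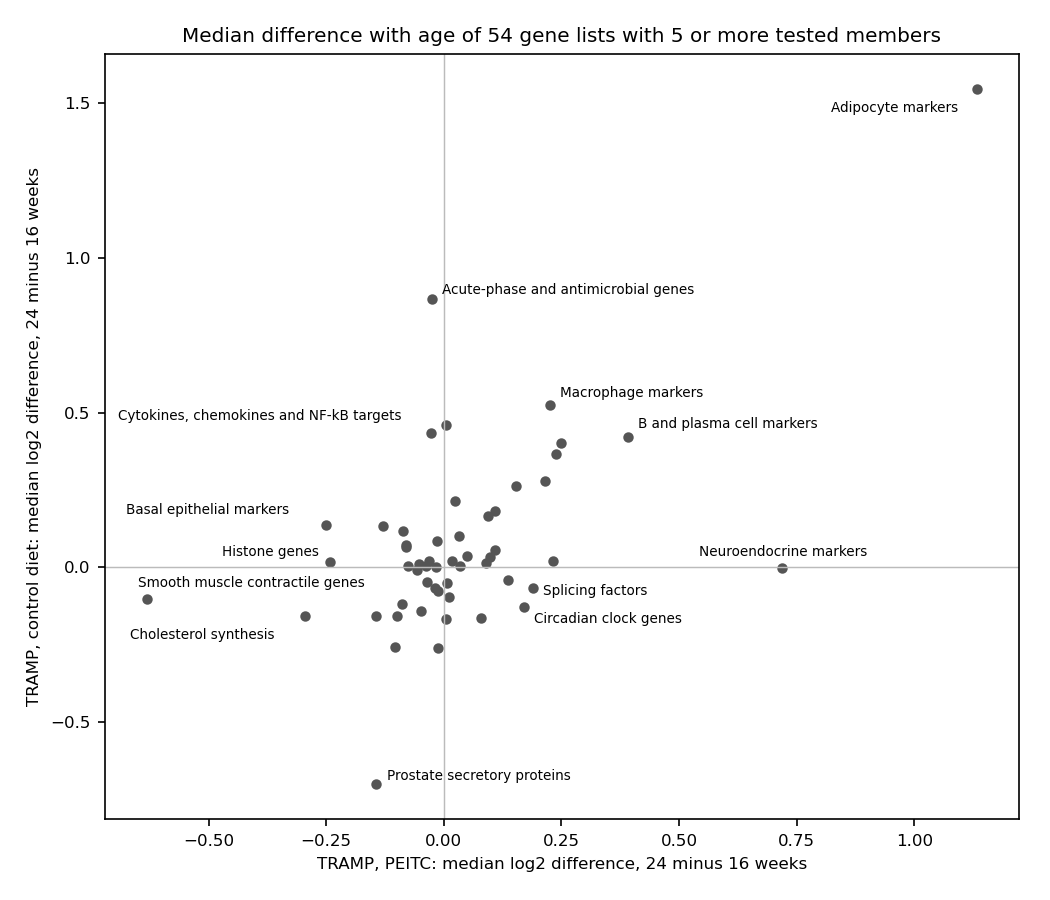
Median log2(FPKM + 1) difference, 24 minus 16 weeks, of the 54 gene lists with at least 5 tested members, on PEITC (horizontal) and on control diet (vertical), 1 point per list. Cholesterol synthesis lies left of 0 on PEITC and below 0 on control diet, splicing and clock genes lie right of 0 and below 0, and acute-phase genes lie near 0 on PEITC and high on control diet.

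Other lists had small medians on PEITC, some with many members lower. Oxidative phosphorylation had a median of -0.057, with 12 of 24 lower without overlap, and glycolysis and hypoxia -0.076, with 12 of 21 lower, against 26.1% of all genes. Among DNA repair genes 10 of 20 were lower without overlap and 18 by sign, with a median of -0.10. Fibroblast markers had 0.11, with 2 of 16 higher, and ran from -0.50 to 0.66 without 1 library. DNA repair and the other lists not named so far with at least 5 tested members had medians between -0.13, for matrix and basement membrane genes, and 0.24, for complement genes. Both limits rest on single libraries. The matrix median was 0.10 without replicate 1 of 16 weeks and -0.41 without replicate 0. That of complement was -0.021 without replicate 1 of 24 weeks and -0.075 without replicate 0 of 16 weeks. Of these 29 lists' medians, 21 changed sign without 1 of the 4 libraries. No list had a member called in the PEITC comparison, and 3 lists had fewer than 5 tested members.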

How the data were processed

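Total RNA of 12 libraries was sequenced after standard Illumina library preparation, per the labels' protocols. The authors deposited 1 FPKM value per gene and library. HISAT2, Picard, featureCounts, DESeq2 and the build mm10 are named per the submitters' processing notes, with no role or version; neither the gene annotation nor the library total behind an FPKM value is given in the sources used here. Labels do not say how many animals a library holds, so p-values measure the spread between these libraries, which may be technical. FPKM carries no count, so no interval for counting error could be given.

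For the deposited FPKM values log2(FPKM + 1) was fitted in limma 3.58.1 (R 4.3.3) on the 13375 of 24421 genes that averaged 0.5 FPKM or more across the 12 libraries. The fit had 1 mean for each of 7 groups, an intensity trend and 5 residual degrees of freedom (2.895 prior); the 5 groups with 2 libraries gave the spread. Two-sided p-values were adjusted by Benjamini-Hochberg over all tested genes, and a gene was called at an adjusted p under 0.05. On this scale the fold change of low genes is understated. The difference between diets was the interaction of diet and age in the same fit. The code was tested on simulated data. Positions come from GENCODE M21 (GRCm38, which is mm10), in which 23376 symbols (95.7%) matched.

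Named genes were the called ones, the 5 smallest p-values of a direction with fewer than 5 calls, and 22 fixed genes, of which some are not reported here; list members that were not called, and genes said to be so, were picked once their values were known. The 57 gene lists and all members were chosen with earlier results of these data known. Promoter motifs had been planned only for lists with at least 5 called members, which did not occur; the search shown is a description. Alternatives were other pseudocounts (0.1 and 5), other filters, scalings, GC correction, library weights, a replicate block and leaving out each library.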

Additional observations from a re-analysis of the deposited data

Results flagged for a closer look

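The age difference of Cyp2b10 differed between the diets by the test of that difference: it was 1.303 less negative on PEITC on the log2 scale (-0.36 against -1.66), with an adjusted p of 0.0245 in limma over 13375 genes. Both PEITC libraries of 24 weeks lay above both control libraries of that age, and both PEITC libraries of 16 weeks below both controls. Other settings, among them leaving out single libraries, gave adjusted p-values on both sides of 0.05.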

How the results depend on the processing

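Of the counts of called genes under other settings, 35 stayed at the main value or within 1.5 times of it and 19 did not. For PEITC the count of 0 became 1 with 0.1 added to FPKM (Mir6362), 1 with library weights, equal within each group (Sqle) and 13 with no filter on low values (9 higher and 4 lower, mostly small RNA genes); leaving out 1 library gave 0 to 24. For control diet the count of 1 became 4 with no filter and 0 with only the libraries compared; leaving out 1 library gave 1 to 260. For the difference between diets the count of 1 became 12 with no filter and 0 with no intensity trend or only the libraries compared; leaving out 1 library gave 0 to 124. The cause was not tested. The labels of both ages share replicate numbers 0 and 1 without saying that a number pairs libraries; with only 2 pairs, the deviations of same-numbered libraries correlated at 0.237. With the replicate block 0 genes were called on PEITC and 0 between diets, where Cyp2b10 had an adjusted p of 0.114; the libraries share only a number.

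Of 1499 values of named genes under other settings, 26 had the opposite sign to the main one. After quantile normalization these were Nqo1 (-0.042) and Rara (-0.026), and the rest arose when 1 PEITC library was left out. The log2 differences then ran, lowest to highest, as follows for the genes concerned: Adipoq -0.10 to 3.32, Cdkn1a -0.20 to 0.35, Cdkn2a -0.10 to 0.50, Cfd -1.01 to 3.15, Chga -0.19 to 3.37, Defb50 -0.022 to 0.31, Ezh2 -0.17 to 0.061, Fabp4 -0.60 to 2.93, Hmox1 -0.19 to 0.28, Insm1 -0.061 to 3.50, Myc -0.090 to 0.10, Nnat -0.13 to 4.15, Nqo1 -0.14 to 0.21, Pbsn -0.88 to 0.28, Peg10 -0.0036 to 2.55, Ptx3 -0.29 to 0.13, Rara -0.040 to 0.053, Sox1 -0.030 to 2.86, Ssbp4 -0.032 to 0.082 and Top2a -0.49 to 0.0012. Of 965 list medians, 81 moved by more than the spread between replicates. The number of libraries and the unknown depth limit what can be seen in genes under 1 FPKM.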
